A study of Mus musculus with 20 samples.

Results

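The messages of tissue factor, plasminogen activators and serpins were followed through 4 groups of adipocyte progenitor cells. The 8 genes, taken by symbol from a table of 27179 genes, were F3, Tfpi, Thbd, Plat, Plau, Plaur, Serpine2 and Serpinf1. Each was found once and each passed the filter on low values, an average over the 20 libraries of no less than 10 normalized reads, as did 13057 genes in all.

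The cells came from inguinal white adipose tissue, the subcutaneous fat of the mouse groin, of male C57BL/6 mice. They had been isolated by flow cytometry as PDGFRb+ cells and divided by DPP4, a surface peptidase, into DPP4+ and DPP4- progenitors. Mice had been held at 6 °C for 24 h or kept at room temperature (22 °C), with 5 libraries in each of the 4 groups: DPP4+ cells at 6 °C, DPP4+ cells at 22 °C, DPP4- cells at 6 °C and DPP4- cells at 22 °C. No genotype or drug differed between the groups, and the age of the mice and the number of mice per library are not given in the sources used here. Nothing in the labels says that libraries came from separate animals, so p-values measure the spread between these libraries, which may in part be technical. Library depth, summed over genes, was 8.49 to 18.8 M reads.

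Tissue factor, the product of F3 and also known as the surface antigen CD142, is the membrane receptor that starts blood clotting by binding factor VII. Thrombin is formed at the end of that cascade. Tissue factor pathway inhibitor limits its formation, thrombomodulin redirects the thrombin formed, and serpins trap thrombin and other proteases by offering a bait loop. Fibrin and matrix are cleared by plasmin, made from plasminogen by tissue-type and urokinase-type plasminogen activators. In adipose tissue F3 is used as a surface marker of a progenitor subset that restrains fat cell formation, and plasminogen activators take part in remodelling of the matrix around progenitors.

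The sort was visible in the libraries. Dpp4 averaged 10035 ± 2091 normalized reads in DPP4+ cells at 6 °C and 8546 ± 1158 in DPP4+ cells at 22 °C, against 61.3 ± 42.4 in DPP4- cells at 6 °C and 67.9 ± 21.6 in DPP4- cells at 22 °C (mean ± SD of 5). All 8 progenitor markers checked, Pdgfra and Pdgfrb among them, were present in every group. A normalized read is a read count divided by the authors' factor for its library, and these factors leave unequal totals of 10.2 to 12.1 M in DPP4+ libraries and 15.4 to 17.3 M in DPP4- libraries. With totals set equal the median log2 difference of all tested genes between the populations was 0.50 at 6 °C, in place of 0.032, and 0.64 at 22 °C, in place of 0.030. Population differences are therefore given with both scalings where the direction turns, and for some other genes. For the cold effects this median was -0.040 with equal totals for DPP4+ cells and 0.10 for DPP4- cells.

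Tissue factor fell in DPP4+ cells in the cold. F3 (Entrez gene 14066, GRCm38 chromosome 3, 121723537 to 121735052) had 533, 577, 518, 511 and 518 normalized reads in the 5 DPP4+ libraries at 6 °C, against 2361, 2249, 1938, 2289 and 2029.9 in the 5 at 22 °C. Each cold library lay far below each library at 22 °C, and the group means of 531 ± 26.9 and 2173 ± 180.4 (SD, n = 5) differed 4.09-fold (log2 difference -2.03 ± 0.086, adjusted p = 6.57e-15, limma). Here and below a log2 difference is given ± its SE. In bulk libraries fewer F3-expressing cells and less F3 message per cell cannot be told apart. DPP4- cells held 2617, 3395, 2667, 3093 and 2397 at 6 °C, against 2582, 2725, 2274, 2928 and 3054 at 22 °C. These groups overlapped and did not pass (log2 difference 0.059 ± 0.086, adjusted p = 0.742, limma), with a 95% interval of -0.12 to 0.24. The difference between the cold effects was itself past the threshold (log2 difference -2.09 ± 0.12, adjusted p = 6.16e-12, limma).

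The order of F3 levels was therefore DPP4- cells at 6 °C, DPP4- cells at 22 °C, DPP4+ cells at 22 °C and, lowest, DPP4+ cells at 6 °C, with the first pair not separated beyond their spread. The population difference was 5.33-fold in the cold, with the DPP4+ libraries lower (log2 difference -2.40 ± 0.086, adjusted p = 2.06e-17, limma). At 22 °C it was 1.25-fold, lower in DPP4+ cells, with groups that overlapped (log2 difference -0.32 ± 0.086, adjusted p = 0.00209, limma). This small difference turned to 0.30 with totals set equal (adjusted p = 0.00301, limma) and to 0.035 with quantile normalization (adjusted p = 0.715). The difference in the cold stayed negative, at -1.93 and -2.30.

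**Figure D1:**
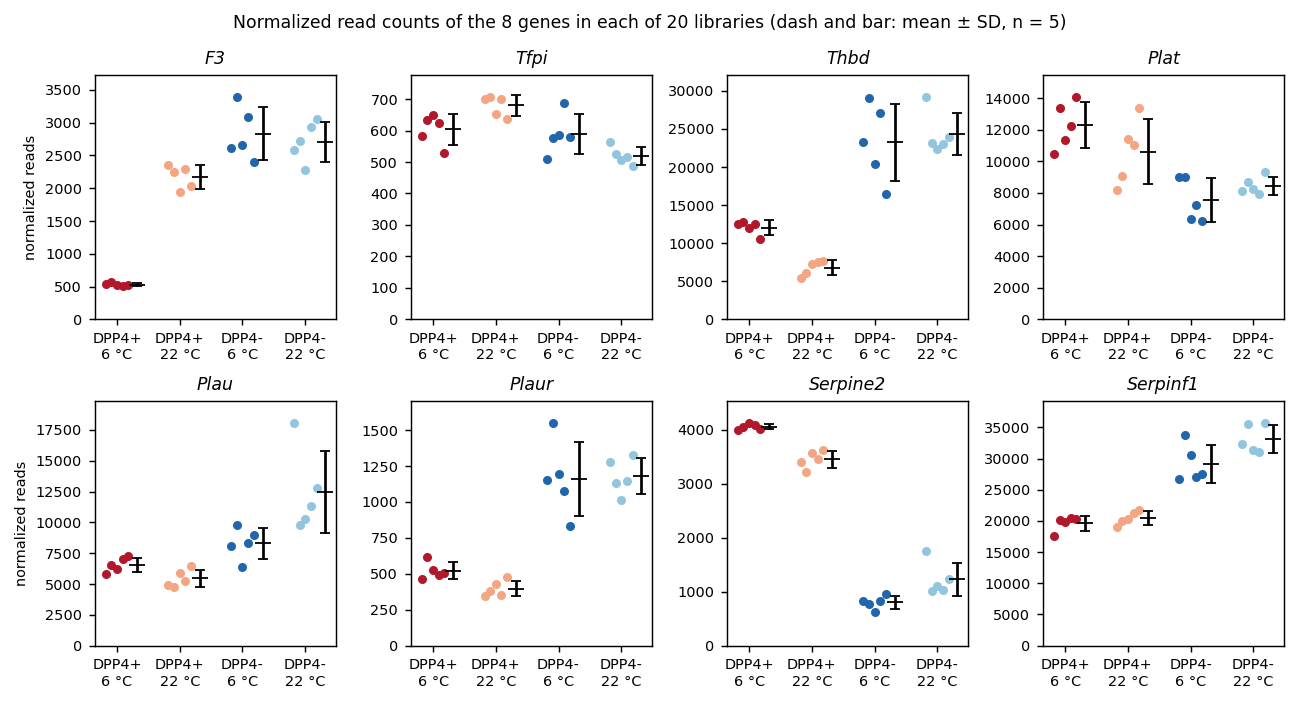
Normalized reads (vertical axes, each from 0) of the 8 genes in the 20 libraries; points are libraries, and the dash with its bar is the mean ± SD of 5. F3 stands at 511 to 577 in DPP4+ cells at 6 °C and at 1938 or more in the other 15 libraries, and Serpine2 stands at 3218 or more in DPP4+ libraries and at 1757 or less in DPP4- libraries.

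The stretch before the F3 start is shown because F3 carries the largest cold difference of the 8 genes, and that of Plaur because it is the other member with the same motif there. Of Tfpi, Serpine2 and Serpinf1, whose windows were also searched, none holds that motif. Of the 8 genes 5 have an entry in the RefSeq promoter table of GRCm38.p6. The 250 bases before the table's start are printed 5′ to 3′ on the gene's strand, with matches to the AP-1 motif (TGANTCA) and the GC box (GGGCGG), sought on both strands, in capitals. Also sought were the CRE motif (TGACGTCA), its shorter form TGACGT, the TATA box (TATAAA) and the NF-kB motif (GGGANTTCC). The F3 and Plaur windows held no match to these. AP-1 and the GC box are thus those of a larger set that matched here, and no adjustment was made for the number sought.
F3 at chr3:121723287-121723536, plus strand: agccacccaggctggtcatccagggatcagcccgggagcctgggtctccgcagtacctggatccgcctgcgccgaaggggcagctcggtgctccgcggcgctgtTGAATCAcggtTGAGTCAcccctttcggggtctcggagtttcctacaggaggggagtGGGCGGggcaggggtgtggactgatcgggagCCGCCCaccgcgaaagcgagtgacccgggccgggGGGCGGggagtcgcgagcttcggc
Plaur at chr7:24462233-24462482, plus strand: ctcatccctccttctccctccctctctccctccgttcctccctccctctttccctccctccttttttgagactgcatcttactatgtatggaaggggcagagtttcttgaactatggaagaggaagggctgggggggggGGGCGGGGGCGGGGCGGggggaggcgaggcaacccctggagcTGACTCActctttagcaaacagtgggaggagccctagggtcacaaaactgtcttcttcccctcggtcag
In the F3 window 2 AP-1 matches begin 146 and 135 bases before the start, and 3 GC boxes lie closer to it, the first 89 bases before the start. In the Plaur window 1 AP-1 match begins 69 bases before the start and 3 GC boxes overlap or adjoin each other from 111 bases before it. Over 32851 windows of the same length 6.75% hold an AP-1 match and 32.7% a GC box. The start used for Plaur lies inside the span that the RefSeq gene table gives it. In the far part of the F3 window GENCODE also lists a transcript on the other strand. A match is a run of letters and no evidence of binding.

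Genes of the AP-1 family and other immediate early and dissociation genes, which respond to the handling of tissue, were checked beside F3. Of all tested genes 35.7% were lower and 38.5% higher in DPP4+ than in DPP4- cells at 6 °C. At 22 °C these shares were 36.2% and 38.7%. Of the 18 immediate early and dissociation genes 16 were lower and 2 higher at each temperature. Their summed level was 56746 to 94302 normalized reads in DPP4+ cells at 6 °C, 62493 to 80184 in DPP4+ cells at 22 °C, 243508 to 297890.5 in DPP4- cells at 6 °C and 242068 to 324559 in DPP4- cells at 22 °C. Within DPP4+ cells the cold ranges overlapped those at 22 °C. There 23.5% of all genes rose in the cold and 22.6% fell, and of the 18 genes 3 rose and none fell. Their part in the differences of F3 and of the other members between the populations was not tested.

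Tfpi, which encodes the inhibitor of the tissue factor and factor VII complex (GRCm38 chromosome 2, 84432855 to 84476775), changed far less than F3. Its range was 529 to 649.6 normalized reads in DPP4+ cells at 6 °C, 637 to 707 in DPP4+ cells at 22 °C, 509 to 687 in DPP4- cells at 6 °C and 486 to 564 in DPP4- cells at 22 °C. Within DPP4+ cells the cold mean of 604 ± 48.6 lay 1.13-fold below 679.8 ± 32.2 (log2 difference -0.17 ± 0.070, adjusted p = 0.0466, limma). This call, at the edge of the threshold, was lost with no filter on low values (adjusted p = 0.0896, limma) and without DPP4+ 6 °C replicate 1, 4 or 5 or DPP4+ 22 °C replicate 1, 2 or 4 (adjusted p = 0.0518 to 0.138, limma). DPP4- cells did not pass and leaned the other way (log2 difference 0.17 ± 0.070, adjusted p = 0.158, limma), and the difference of the cold effects passed (log2 difference -0.34 ± 0.10, adjusted p = 0.00946, limma). At 22 °C the DPP4+ libraries all lay above the DPP4- libraries (log2 difference 0.39 ± 0.070, adjusted p = 2.81e-05, limma). At 6 °C the populations did not pass (log2 difference 0.042 ± 0.070, adjusted p = 0.601, limma). With totals set equal that value was 0.51 (adjusted p = 2.03e-06, limma). The order of levels was DPP4+ cells at 22 °C, DPP4+ cells at 6 °C, DPP4- cells at 6 °C and DPP4- cells at 22 °C, each overlapping its neighbour.

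Thrombomodulin moved opposite to tissue factor in DPP4+ cells. Thbd, whose product binds thrombin on the cell surface and turns it towards activation of protein C (GRCm38 chromosome 2, 148404471 to 148408188), had 12496, 12838, 11936, 12535 and 10497 normalized reads in DPP4+ cells at 6 °C, against 5431, 6087, 7233, 7550.3 and 7658 at 22 °C. All cold libraries lay above all libraries at 22 °C, a 1.78-fold rise (log2 difference 0.84 ± 0.13, adjusted p = 8.74e-06, limma). In DPP4- cells the values were 23267, 29056, 20371, 27067 and 16448 at 6 °C, against 29218, 23119, 22316, 23029 and 23982 at 22 °C. These overlapped, with no call (log2 difference -0.088 ± 0.13, adjusted p = 0.737, limma). The cold effects differed (log2 difference 0.93 ± 0.18, adjusted p = 3.18e-04, limma). Thbd remained lower in DPP4+ than in DPP4- cells, by 1.93-fold at 6 °C (log2 difference -0.92 ± 0.13, adjusted p = 6.50e-07, limma) and by 3.58-fold at 22 °C (log2 difference -1.85 ± 0.13, adjusted p = 5.53e-12, limma), with no overlap at either temperature. The call at 6 °C was lost with quantile normalization, where the log2 difference was -0.25 (adjusted p = 0.0586, limma).

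The genes of the plasminogen activators did not pass in the cold in DPP4+ cells. Plat, tissue-type plasminogen activator (GRCm38 chromosome 8, 22757722 to 22782848), had 10497, 13377, 11326, 12263 and 14088 normalized reads in DPP4+ cells at 6 °C, against 8193, 9044, 11407, 11047 and 13391 at 22 °C. The groups overlapped, and the log2 difference of 0.23 had a 95% interval of -0.035 to 0.49 (adjusted p = 0.139, limma). In DPP4- cells they were 9036, 8989, 6361, 7247 and 6202 at 6 °C, against 8104, 8707, 8230.3, 7919.9 and 9349.9 at 22 °C, again overlapping (log2 difference -0.18 ± 0.12, adjusted p = 0.439, limma). The difference of the cold effects also missed the threshold (log2 difference 0.40 ± 0.17, adjusted p = 0.0794, limma). Plat was higher in DPP4+ than in DPP4- cells at 6 °C with no overlap, 1.63-fold (log2 difference 0.71 ± 0.12, adjusted p = 1.90e-05, limma). At 22 °C the groups overlapped and the 1.25-fold difference passed (log2 difference 0.31 ± 0.12, adjusted p = 0.0286, limma). This log2 difference was larger with totals set equal (0.92, adjusted p = 1.33e-08, limma) and with quantile normalization (0.96, adjusted p = 7.71e-09, limma). With the authors' factors the call was lost without DPP4+ 22 °C replicate 3, 4 or 5 or DPP4- 22 °C replicate 1, 3 or 4 (adjusted p = 0.0510 to 0.105, limma). In turn the cold rise in DPP4+ cells passed without DPP4+ 22 °C replicate 5 (adjusted p = 0.0370, limma), and the difference of the cold effects without DPP4+ 22 °C replicate 5 or DPP4- 6 °C replicate 1 or 2 (adjusted p = 0.0258 to 0.0407, limma).

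Plau, urokinase-type plasminogen activator (GRCm38 chromosome 14, 20836662 to 20843388), fell in the cold in DPP4- cells. It had 8065, 9761, 6373, 8303 and 9006 normalized reads in DPP4- cells at 6 °C, against 18048, 9815, 10252, 11319 and 12770.4 at 22 °C. All cold libraries were below all libraries at 22 °C, and the means of 8301 ± 1265 and 12441 ± 3335 (SD, n = 5) differed past the threshold (log2 difference -0.56 ± 0.14, adjusted p = 0.0193, limma). Replicate 1 at 22 °C was the highest library. Without it the log2 difference was -0.42 (adjusted p = 0.0353, limma). Without replicate 3 at 6 °C the call was lost at -0.47 (adjusted p = 0.0545). DPP4+ cells held 5849, 6525, 6178, 7016 and 7252 at 6 °C, against 4951, 4722, 5907, 5230.2 and 6431 at 22 °C, which overlapped and did not pass (log2 difference 0.27 ± 0.14, adjusted p = 0.108, limma). The cold effects differed between the populations (log2 difference 0.84 ± 0.19, adjusted p = 0.00205, limma). Plau was 2.28-fold lower in DPP4+ than in DPP4- cells at 22 °C with no overlap (log2 difference -1.16 ± 0.14, adjusted p = 9.96e-08, limma). This difference was smaller with totals set equal (-0.55, adjusted p = 2.79e-04, limma) and with quantile normalization (-0.53, adjusted p = 2.73e-04, limma). At 6 °C Plau was 1.26-fold lower with overlap (log2 difference -0.33 ± 0.14, adjusted p = 0.0351, limma). This call was lost with no filter (adjusted p = 0.0638, limma) and without DPP4+ 6 °C replicate 1, 2 or 3 or DPP4- 6 °C replicate 2, 4 or 5 (adjusted p = 0.0539 to 0.0972, limma). The log2 difference was -0.27 with TMM factors (adjusted p = 0.0807), and turned to 0.14 with totals set equal and to 0.033 with quantile normalization.

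Plaur, the receptor that holds urokinase at the cell surface (GRCm38 chromosome 7, 24460937 to 24475970), rose in cold DPP4+ cells. It had 462, 620.0, 528, 490.3 and 507 normalized reads in DPP4+ cells at 6 °C, against 348, 379, 431, 354 and 475 at 22 °C. A single cold library, replicate 1, fell within the range at 22 °C, and the 1.31-fold rise passed (log2 difference 0.39 ± 0.13, adjusted p = 0.0135, limma). DPP4- cells held 1154, 1549, 1196, 1073 and 834 at 6 °C, against 1280.1, 1129, 1013, 1145 and 1329.6 at 22 °C, with overlap and no call (log2 difference -0.044 ± 0.13, adjusted p = 0.878, limma). The cold effects were not shown to differ (log2 difference 0.44 ± 0.18, adjusted p = 0.0620, limma); they passed without DPP4+ 22 °C replicate 5 or DPP4- 6 °C replicate 2 or DPP4- 22 °C replicate 3 (adjusted p = 0.00841 to 0.0428, limma). The populations were apart at both temperatures, with Plaur lower in DPP4+ cells by 2.23-fold at 6 °C (log2 difference -1.13 ± 0.13, adjusted p = 5.02e-08, limma) and by 2.97-fold at 22 °C (log2 difference -1.57 ± 0.13, adjusted p = 2.86e-10, limma).

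Serpine2 was the member most skewed towards DPP4+ cells. Its product, protease nexin-1, inhibits thrombin, urokinase and tissue-type plasminogen activator (GRCm38 chromosome 1, 79794317 to 79858665). There were 3992, 4055, 4119.7, 4092 and 4013 normalized reads in DPP4+ cells at 6 °C, against 3393, 3218, 3574, 3461 and 3619 at 22 °C. Every cold library was above every library at 22 °C, yet the 1.17-fold difference did not pass (log2 difference 0.23 ± 0.11, adjusted p = 0.103, limma). The fit uses 1 spread per gene over all 4 groups, and for Serpine2 the SD within a group ran from 53.1 in DPP4+ cells at 6 °C to 309.7 in DPP4- cells at 22 °C. DPP4- cells had 835, 777, 629, 832 and 951 at 6 °C, against 1757, 1003, 1096, 1039 and 1239.6 at 22 °C. Here the cold libraries lay below all libraries at 22 °C, a 1.52-fold fall (log2 difference -0.59 ± 0.11, adjusted p = 0.00471, limma). Without replicate 1 at 22 °C, the highest, the log2 difference was -0.45 (adjusted p = 0.00310, limma). The cold effects differed (log2 difference 0.82 ± 0.16, adjusted p = 4.85e-04, limma). Between the populations Serpine2 was 5.04-fold higher in DPP4+ cells at 6 °C (log2 difference 2.34 ± 0.11, adjusted p = 4.45e-14, limma) and 2.81-fold higher at 22 °C (log2 difference 1.52 ± 0.11, adjusted p = 7.78e-11, limma), with no overlap.

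Serpinf1 encodes pigment epithelium-derived factor, a secreted serpin that does not inhibit proteases and is known as an inhibitor of blood vessel growth (GRCm38 chromosome 11, 75410029 to 75422623). Its range was 17557 to 20489 normalized reads in DPP4+ cells at 6 °C, 19088 to 21823 in DPP4+ cells at 22 °C, 26713 to 33836 in DPP4- cells at 6 °C and 31072 to 35676 in DPP4- cells at 22 °C. It did not pass in the cold in either population. The 95% interval of the log2 difference, which carries no adjustment for the number of genes, was -0.22 to 0.10 in DPP4+ cells (adjusted p = 0.552, limma) and -0.36 to -0.028 in DPP4- cells (adjusted p = 0.151). DPP4+ cells were 1.48-fold lower than DPP4- cells at 6 °C (log2 difference -0.56 ± 0.077, adjusted p = 5.53e-07, limma) and 1.62-fold lower at 22 °C (log2 difference -0.70 ± 0.077, adjusted p = 1.89e-08, limma). These calls depended on the scaling: with totals set equal the log2 differences were -0.10 at 6 °C and -0.082 at 22 °C. With quantile normalization they were 0.11 and 0.11. None of these passed.

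**Figure D2:**
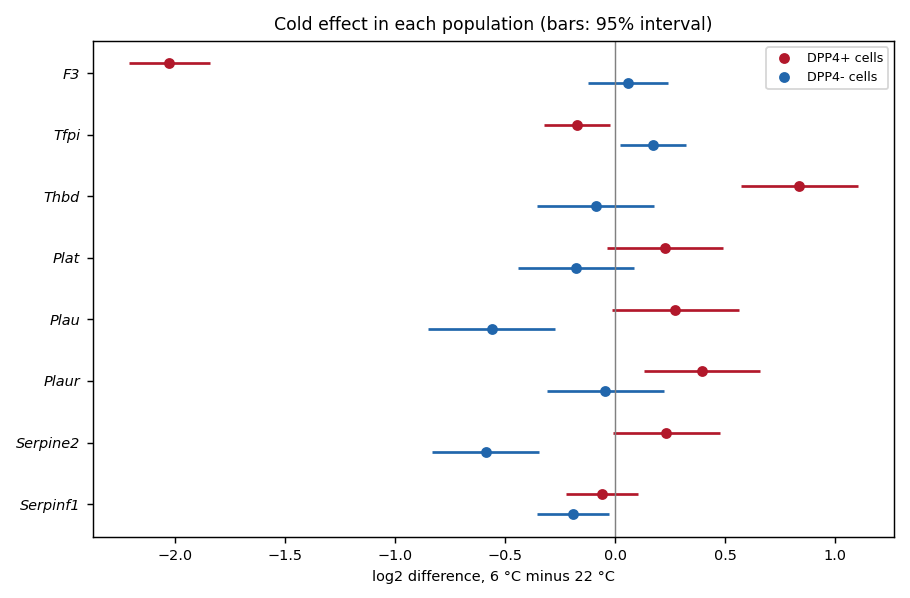
Fitted log2 difference of 6 °C minus 22 °C (horizontal axis) for each gene, in DPP4+ cells (upper point of each pair) and DPP4- cells (lower point); bars are 95% intervals. F3 stands at -2.03 for DPP4+ and at 0.059 for DPP4- cells, and Plau and Serpine2 lie below 0 in DPP4- cells with intervals that leave 0 out.

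Over the 8 genes, the cold was followed in DPP4+ cells by a rise of 2 (Thbd and Plaur) and a fall of 2 (F3 and Tfpi). Among all tested genes in that comparison 46.1% passed, 23.5% higher and 22.6% lower, so 4 of 8 is near the background. Groups of 5 did not overlap for 3 members (F3, Thbd and Serpine2) against 38.4% of all genes (19.4% higher and 19% lower). In DPP4- cells 2 fell (Plau and Serpine2) and none rose, where 5.22% of all genes passed, 1.98% higher and 3.23% lower. For the same 2 members the groups did not overlap, against 4.87% of all genes (1.65% higher and 3.22% lower). With totals set equal the split of all genes in DPP4- cells became 915 higher and 227 lower in place of 259 and 422, the same 2 members fell and Tfpi rose (0.27, adjusted p = 0.0359, limma). The cold effects differed for 5 of 8 members, more positive in DPP4+ cells for Thbd, Plau and Serpine2 and more negative for F3 and Tfpi, where 33.2% of all genes passed, 16.8% positive and 16.4% negative. With totals set equal all genes split into 1128 more positive and 3060 more negative in place of 2192 and 2137, and the members stayed at 3 and 2. These comparisons share libraries and are not independent of each other.

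Between the populations nearly every member differed, as did most genes. At 6 °C 2 were higher in DPP4+ cells (Plat and Serpine2) and 5 lower (F3, Thbd, Plau, Plaur and Serpinf1), where 74.2% of all genes passed, 38.5% higher and 35.7% lower. At 22 °C 3 were higher (Tfpi, Plat and Serpine2) and 5 lower, where 74.9% passed, 38.7% higher and 36.2% lower. Groups did not overlap for 6 members at 6 °C (Plat, Serpine2, F3, Thbd, Plaur and Serpinf1), against 57.1% of all genes (29.8% higher and 27.4% lower). At 22 °C they did not overlap for 6 (Tfpi, Serpine2, Thbd, Plau, Plaur and Serpinf1), against 64.8% (33.4% higher and 31.4% lower). With totals set equal the calls over all genes were 8240 higher and 2461 lower at 6 °C in place of 5031 and 4662, and 9107 and 2039 at 22 °C in place of 5052 and 4730. Then 3 members were higher and 3 lower at 6 °C, and 4 and 3 at 22 °C. Thbd and Plaur stayed lower and Plat and Serpine2 higher in DPP4+ cells with totals set equal. With the authors' factors the median log2 difference of the 8 was -0.45 at 6 °C and -0.51 at 22 °C, against 0.032 and 0.030 over all tested genes. This lean depended on the scaling. With quantile normalization 2 members were higher and 2 lower at 6 °C, where all genes split into 5010 and 4640. At 22 °C 3 were higher and 3 lower, where all genes split into 5038 and 4698.

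**Figure D3:**
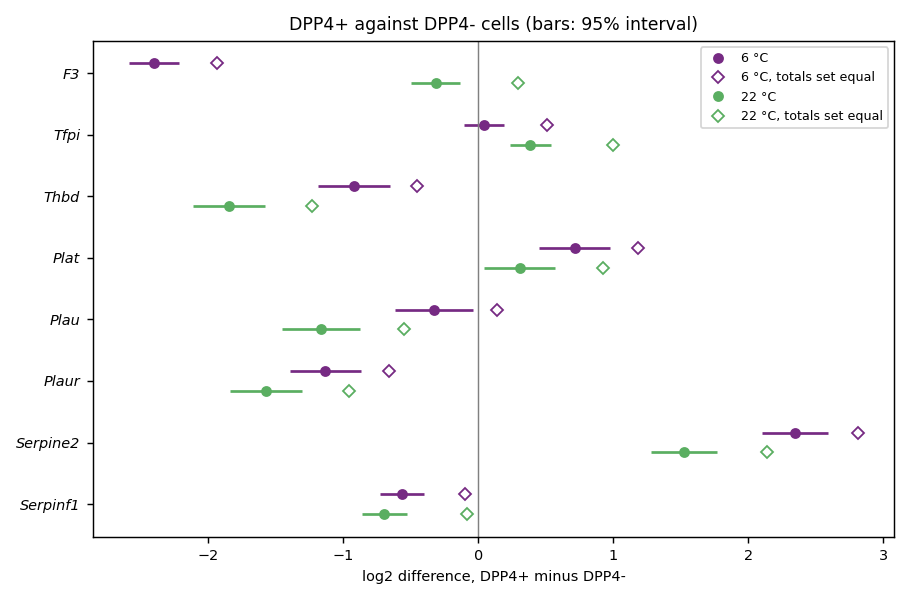
Fitted log2 difference of DPP4+ minus DPP4- cells (horizontal axis) at 6 °C (upper point of each pair) and 22 °C (lower point), with 95% intervals as bars; open diamonds give the same value with library totals set equal. Serpine2 lies right of 0 and Thbd and Plaur left of it with both scalings, while F3 at 22 °C moves from -0.32 to 0.30.

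Ordered by mean level, the groups ran differently from gene to gene. Thbd, Plaur and Serpinf1 were highest in DPP4- cells, where the temperatures overlapped, and lower in DPP4+ cells, where the temperatures were apart for Thbd, with the cold libraries above, and overlapped for Plaur and Serpinf1. Plau was highest in DPP4- cells at 22 °C, apart from all others, followed by DPP4- cells at 6 °C, DPP4+ cells at 6 °C and DPP4+ cells at 22 °C, each overlapping the next. Plat ran from DPP4+ cells at 6 °C through DPP4+ cells at 22 °C and DPP4- cells at 22 °C to DPP4- cells at 6 °C, with each neighbouring pair overlapping. Serpine2 ran from DPP4+ cells at 6 °C through DPP4+ cells at 22 °C and DPP4- cells at 22 °C to DPP4- cells at 6 °C, with no pair overlapping.

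Levels of different genes were compared per kb of annotated exon. Serpinf1 was the most abundant member in all 4 groups, at 10143 normalized reads per kb in DPP4+ cells at 6 °C, 10571 per kb in DPP4+ cells at 22 °C, 15035 per kb in DPP4- cells at 6 °C and 17127 per kb in DPP4- cells at 22 °C. Plat came next in DPP4+ cells, at 4875 per kb at 6 °C and 4204 at 22 °C. In DPP4- cells it was Thbd, at 6243 and 6536. Tfpi was the lowest member in every group, between 98.3 and 129 per kb. F3 stood at 284 per kb in cold DPP4+ cells, below Plaur at 346. In DPP4+ cells at 22 °C it stood at 1161 and Plaur at 264.

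Ratios of genes within a library cannot be changed by a factor applied to that whole library, so they show the balance without the choice of factors. Quantile normalization is not such a factor and can change them. The pairs were chosen with the levels known and are given as a description. The ratio of Thbd to F3, per kb, was 11.4 ± 0.799 in DPP4+ cells at 6 °C and 1.59 ± 0.324 in DPP4+ cells at 22 °C, against 4.09 ± 0.436 in DPP4- cells at 6 °C and 4.56 ± 0.749 in DPP4- cells at 22 °C (SD, n = 5). DPP4+ libraries thus had the lowest ratios of the series at 22 °C and the highest at 6 °C, with no overlap with any other group. The ratio of Plat to Plau was 1.74 ± 0.113 in DPP4+ cells at 6 °C and 1.80 ± 0.168 at 22 °C, against 0.853 ± 0.148 in DPP4- cells at 6 °C and 0.662 ± 0.153 at 22 °C. It separated the populations and overlapped between temperatures. That of Procr, the protein C receptor, to Thbd was 2.48 ± 0.151 in DPP4+ cells at 6 °C and 2.70 ± 0.436 at 22 °C, against 0.366 ± 0.0531 in DPP4- cells at 6 °C and 0.395 ± 0.0478 at 22 °C.

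**Figure D4:**
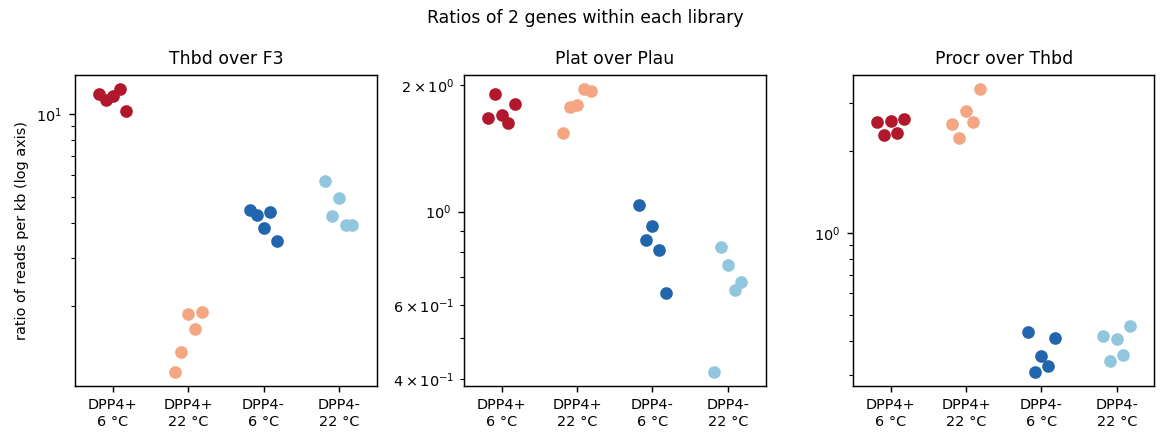
Ratio of reads per kb of 2 genes within each library (vertical axes are logarithmic), with 1 point per library and the 4 groups along the horizontal axis. Thbd over F3 runs from 10.2 to 12.3 in DPP4+ cells at 6 °C and from 1.16 to 1.90 in DPP4+ cells at 22 °C.

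Around the 8 members, 69 further genes of clotting, fibrinolysis and the serpin family were listed, and 32 passed the filter on low values. The liver-made factors were at or near 0: plasminogen itself (Plg) averaged under 1 normalized read in every group, and fibrinogen and prothrombin genes averaged under 3. In cold DPP4+ cells 8 of the 32 rose and 10 fell (median log2 difference -0.075, against 0.01 over all tested genes), where 46.1% of all genes passed. In cold DPP4- cells 1 rose and 3 fell (median -0.10, against 0.00), where 5.22% passed. DPP4+ cells were higher than DPP4- cells for 11 and lower for 17 at 6 °C, and higher for 8 and lower for 21 at 22 °C, where 74.2% and 74.9% of all genes passed. With totals set equal the last counts were 13 and 12 at 6 °C and 13 and 15 at 22 °C.

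Among inhibitors of plasmin and its activators, 2 of 5 were tested. Serpinb2, plasminogen activator inhibitor type 2, was 3.47-fold above the DPP4- level in DPP4+ cells at 6 °C (68.5 ± 8.16 against 19.8 ± 9.27) and 2.73-fold above it at 22 °C. It did not pass in the cold in either population (adjusted p = 0.215 in DPP4+ and 0.965 in DPP4- cells, limma). Serpinb6a, a serpin found inside cells, is named after its values were seen. It averaged 7993 ± 529 normalized reads in DPP4+ cells at 6 °C and 5699 ± 314 at 22 °C, against 7035 ± 602 in DPP4- cells at 6 °C and 7008 ± 552 at 22 °C. It rose in cold DPP4+ cells with no overlap (log2 difference 0.49 ± 0.070, adjusted p = 4.48e-06, limma) and did not pass in DPP4- cells (adjusted p = 0.978, limma). The cold effects differed (log2 difference 0.48 ± 0.10, adjusted p = 6.08e-04, limma).

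Of clotting inhibitors, 5 of 10 were tested. Procr, the endothelial protein C receptor, which works beside thrombomodulin and is also used to mark DPP4+ progenitors, ranged over 11753 to 13745 normalized reads in DPP4+ cells at 6 °C and 5813 to 11119.5 at 22 °C, against 2897 to 4312 in DPP4- cells at 6 °C and 3357 to 5254 at 22 °C. It rose 1.61-fold in cold DPP4+ cells with no overlap (log2 difference 0.73 ± 0.16, adjusted p = 8.30e-04, limma) and did not pass in DPP4- cells (adjusted p = 0.504, limma). It was higher in DPP4+ cells by 3.56-fold at 6 °C and by 1.92-fold at 22 °C. The other 4 tested were lower in DPP4+ cells at both temperatures, where 35.7% of all genes were lower at 6 °C and 36.2% at 22 °C. Groups did not overlap for 3 of these at 6 °C, against 27.4% of all genes, and for 4 at 22 °C, against 31.4%. Tfpi2, a relative of Tfpi that inhibits plasmin in the matrix, averaged 452 ± 58.4 in DPP4+ cells at 6 °C and 449.5 ± 114 at 22 °C, against 3094 ± 556 in DPP4- cells at 6 °C and 3188 ± 474 at 22 °C. Anxa5, annexin A5, which covers clotting-promoting phospholipid, was 2.60-fold lower in DPP4+ cells at 6 °C and 2.99-fold lower at 22 °C. Serpina10, the protein Z-dependent inhibitor, had 0 reads in all DPP4+ libraries at 6 °C and 1 at 22 °C, against 26.1 ± 37.2 normalized reads in DPP4- cells at 6 °C and 23.9 ± 14.9 at 22 °C. It passed the filter on low values only through the DPP4- groups and so had to differ, and in DPP4- cells at 6 °C replicate 4 held 90.3.

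F2r, the thrombin receptor also called protease-activated receptor 1, was the only receptor of its family past the filter. It averaged 585 ± 124 normalized reads in DPP4+ cells at 6 °C and 1331 ± 133 at 22 °C, against 103 ± 18.7 in DPP4- cells at 6 °C and 177 ± 60.7 at 22 °C. F2r fell 2.27-fold in cold DPP4+ cells with no overlap (log2 difference -1.21 ± 0.20, adjusted p = 5.06e-05, limma) and 1.72-fold in cold DPP4- cells with overlap (adjusted p = 0.0349, limma), a call lost with totals set equal (adjusted p = 0.0635), with no filter (adjusted p = 0.0619) and without DPP4- 6 °C replicate 1, 3 or 5 or DPP4- 22 °C replicate 1, 3, 4 or 5 (adjusted p = 0.0555 to 0.0828, limma). The cold effects were not shown to differ (adjusted p = 0.206), though they passed without DPP4- 22 °C replicate 1 (adjusted p = 0.0413, limma). DPP4+ cells held 5.70-fold more than DPP4- cells at 6 °C and 7.53-fold more at 22 °C. The related receptor F2rl1 was too low to test, at 4.76 ± 1.29 in DPP4+ cells at 6 °C and 8.89 ± 3.42 at 22 °C, and 0.814 ± 0.832 and 1.76 ± 2.54 in DPP4- cells.

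Clotting factors gave 4 tested genes of 16. F5, the cofactor of prothrombin activation, averaged 57.3 ± 14.4 normalized reads in DPP4+ cells at 6 °C and 1.55 ± 0.995 at 22 °C, against 7.26 ± 2.72 in DPP4- cells at 6 °C and 4.28 ± 2.81 at 22 °C. In cold DPP4+ cells it rose with no overlap (log2 difference 4.56 ± 0.37, adjusted p = 4.21e-10, limma). F5 passed the filter on low values only through these libraries, and its log2 difference ran from 2.75 to 5.16 under other pseudocounts, scalings and tests. F8, the cofactor of factor X activation, fell 2.79-fold there, to 9.80 ± 2.49 at 6 °C against 27.3 ± 1.28 at 22 °C (log2 difference -1.42 ± 0.22, adjusted p = 1.38e-05, limma). Neither passed in DPP4- cells (adjusted p = 0.230 for F5 and 0.848 for F8, limma). For both the cold effects differed (log2 difference 3.78 for F5, adjusted p = 5.06e-06, and -1.33 for F8, adjusted p = 0.00225). F7, the ligand of tissue factor, averaged 3.67 ± 2.32 in DPP4+ cells at 6 °C and 5.89 ± 0.827 at 22 °C, and 1.25 ± 0.731 and 1.05 ± 1.12 in DPP4- cells. F10 averaged under 3 normalized reads in every group. Neither was tested.

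Genes of plasminogen binding and of receptors that clear protease and serpin complexes gave 10 tested of 12. Of these 4 rose and 3 fell in cold DPP4+ cells, where 23.5% of all genes rose and 22.6% fell. In cold DPP4- cells none rose and 2 fell, where 1.98% of all genes rose and 3.23% fell. Anxa2, the annexin that with S100a10 binds plasminogen and tissue-type activator at the cell surface, averaged 8528 ± 494 normalized reads in DPP4+ cells at 6 °C and 7166 ± 97.4 at 22 °C, against 7165 ± 434 in DPP4- cells at 6 °C and 9178 ± 694 at 22 °C. It rose in cold DPP4+ cells and fell in cold DPP4- cells with no overlap in either (log2 difference 0.25, adjusted p = 0.00219, and -0.36, adjusted p = 0.00152, limma). At 22 °C Anxa2 was lower in DPP4+ than in DPP4- cells (-0.35), a sign that turned with totals set equal (0.26) and with quantile normalization (0.24). S100a10 did not pass in the cold in DPP4+ cells (adjusted p = 0.224, limma; 0.0239 without DPP4+ 6 °C replicate 1) or in DPP4- cells (adjusted p = 0.159). It was 1.53-fold lower in DPP4+ than in DPP4- cells at 6 °C and 2.27-fold lower at 22 °C. At 6 °C the log2 difference with totals set equal was -0.18 and did not pass (adjusted p = 0.162, limma). Eno1, enolase, a glycolytic enzyme that can bind plasminogen, was 4.19-fold higher in DPP4+ cells at 6 °C and 3.19-fold higher at 22 °C.

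Lrp1, the endocytic receptor that takes up activator and inhibitor complexes, averaged 62905 ± 2359.6 normalized reads in DPP4+ cells at 6 °C and 51957 ± 2938 at 22 °C, against 91534 ± 11632 in DPP4- cells at 6 °C and 107316 ± 10488 at 22 °C. It rose 1.21-fold in cold DPP4+ cells (adjusted p = 0.0142, limma; 0.0888 with quantile normalization) and did not pass in DPP4- cells (adjusted p = 0.132). Lrp1 was 1.46-fold lower in DPP4+ cells at 6 °C and 2.07-fold lower at 22 °C. With quantile normalization these log2 differences of -0.53 and -1.04 turned to 0.16 and 0.083. The difference at 6 °C with totals set equal was -0.064 and did not pass (adjusted p = 0.489, limma). Its relatives moved further. Lrp8 rose 7.03-fold in cold DPP4+ cells (341 ± 86.7 against 48.4 ± 10.5; log2 difference 2.77 ± 0.25, adjusted p = 3.69e-09, limma), and Lrp2 fell 4.55-fold (31.9 ± 9.91 against 145 ± 23.1; log2 difference -2.20 ± 0.37, adjusted p = 4.23e-05, limma). The sorting receptor Sorl1 was 15.0-fold lower in DPP4+ than in DPP4- cells at 6 °C and 10.1-fold lower at 22 °C. Sorl1 passed the filter on low values only through DPP4- cells, so a lower level in DPP4+ cells was in part fixed by the filter. Vtn, vitronectin, an adhesive matrix protein that also binds the urokinase receptor, was 22.0-fold lower in DPP4+ cells at 6 °C (98.6 ± 25.8 against 2169 ± 501) and 15.9-fold lower at 22 °C (116 ± 24.5 against 1848 ± 297).

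Of 7 other serpins tested, none rose and 5 fell in cold DPP4+ cells, where 22.6% of all genes fell, and none passed in cold DPP4- cells. Of the 7, 6 were lower and none higher in DPP4+ than in DPP4- cells at 6 °C, where 35.7% of all genes were lower, and 7 and none at 22 °C, where 36.2% were. Serpina3g fell in cold DPP4+ cells, to 2.08 ± 1.49 normalized reads at 6 °C against 27.7 ± 6.73 at 22 °C (log2 difference -3.31 ± 0.28, adjusted p = 9.60e-10, limma). At these low values its log2 difference ran from -1.82 to -3.73 under other pseudocounts, scalings and tests. Serpinb1a fell 2.40-fold (68.9 ± 15.3 against 165 ± 16.7; adjusted p = 5.90e-08, limma). Serpinb9, an inhibitor of granzyme B, was 4.72-fold lower in DPP4+ cells at 6 °C and 2.53-fold lower at 22 °C, Serpina3n 3.17-fold and 2.66-fold, and Serpinb8 2.34-fold and 2.21-fold. Serping1, the C1 inhibitor of complement and contact proteases, was the most abundant serpin gene of the list per kb, with 15502 in DPP4+ cells at 6 °C and 15361 at 22 °C, against 16957 in DPP4- cells at 6 °C and 18393 at 22 °C. It did not pass in the cold in DPP4+ cells (adjusted p = 0.997, limma) or in DPP4- cells (adjusted p = 0.545). Its population difference of -0.26 at 22 °C turned to 0.35 with totals set equal and 0.60 with quantile normalization, and that of -0.14 at 6 °C to 0.33 and 0.51.

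Of the proteases near the pathway, 3 of 6 were tested. Masp1, a protease of the lectin complement pathway that can also cleave clotting factors, averaged 56.8 ± 14.6 normalized reads in DPP4+ cells at 6 °C and 6.10 ± 2.33 at 22 °C, against 34.0 ± 8.55 in DPP4- cells at 6 °C and 17.8 ± 7.37 at 22 °C. It rose 9.32-fold in cold DPP4+ cells with no overlap (log2 difference 3.05 ± 0.28, adjusted p = 3.01e-09, limma) while in DPP4- cells the ratio of cold to 22 °C was 1.91 with overlap (adjusted p = 0.0406, limma). That call in DPP4- cells was lost with edgeR, with no filter, and without DPP4- 6 °C replicate 2, 3, 4 or 5 or DPP4- 22 °C replicate 1 or 2. The cold effects differed (log2 difference 2.08, adjusted p = 2.34e-04). Prss23, a secreted serine protease, was higher in DPP4+ than in DPP4- cells at 6 °C (11006 ± 2012 against 3672 ± 322) and at 22 °C (10271 ± 769 against 3907 ± 493). Hpn, the membrane protease hepsin, was 2.74-fold lower in DPP4+ cells at 22 °C, 7.36 ± 0.415 against 20.2 ± 6.25. Like Sorl1, Hpn passed the filter on low values only through DPP4- cells, so its difference too was in part fixed by the filter. Serpins of the a3, b1, b6 and b9 groups, Eno1, Anxa2 and S100a10 have close copies in the mouse genome between which reads can be split, so their values are less certain.

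**Figure D5:**
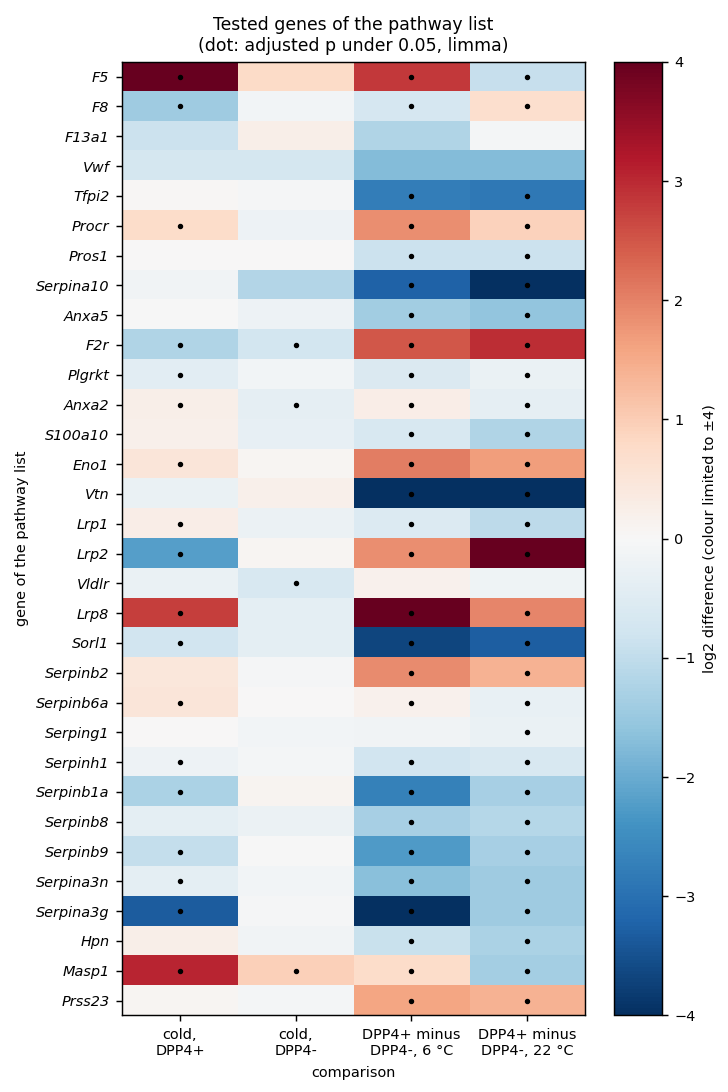
Fitted log2 difference (colour) of the 32 tested genes of the pathway list, down the page in list order, for the cold effect in DPP4+ and DPP4- cells and for DPP4+ minus DPP4- cells at 6 °C and 22 °C; a dot marks adjusted p under 0.05. The first column carries 18 dots and the second 4.

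Thbd, Procr and Plat are also genes of blood vessel lining, and Plau and Plaur of macrophages, so markers of those cells were read beside them. Endothelial markers, 12 in number, summed to 2822 to 4307 normalized reads in DPP4+ cells at 6 °C, 2610.4 to 3326 in DPP4+ cells at 22 °C, 928 to 1434 in DPP4- cells at 6 °C and 1052 to 1495 in DPP4- cells at 22 °C, mostly from Tek. Of 9 tested, 2 were higher and none lower in cold DPP4+ cells, where 23.5% of all genes were higher and 22.6% lower. None passed in cold DPP4- cells, where 5.22% of all genes passed. The defining markers Pecam1 and Cdh5 averaged 23.2 and 21.7 in DPP4+ cells at 6 °C and 23.7 and 20.6 at 22 °C, against 68.2 and 58.4 in DPP4- cells at 6 °C and 73.6 and 69.8 at 22 °C. Macrophage and monocyte markers, 12 in number, summed to 185 to 277 in DPP4+ cells at 6 °C, 174 to 207 at 22 °C, 192 to 641 in DPP4- cells at 6 °C and 226 to 288 at 22 °C. Of these 5 were tested, and against the same shares of all genes 1 was higher and none lower in cold DPP4+ cells. None passed in cold DPP4- cells. C1qb and Tyrobp averaged under 5 in every group. Against DPP4- cells, 3 endothelial markers were higher and 5 lower at 6 °C in DPP4+ cells and 1 higher and 5 lower at 22 °C. For macrophage markers these counts were 1 and 2 at 6 °C and 1 and 3 at 22 °C. Of all genes 38.5% were higher and 35.7% lower at 6 °C, and 38.7% and 36.2% at 22 °C.

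Contractile and pericyte markers, 10 in number, had a sum of 4259 to 7127 in DPP4+ cells at 6 °C and 9353 to 12122 at 22 °C. In DPP4- cells the sum was 4980.1 to 6688 at 6 °C and 3994 to 5511 at 22 °C. In cold DPP4+ cells 5 fell, 2 rose and 3 did not pass, where 22.6% of all genes fell and 23.5% rose, with Acta2 at 3083 ± 643 normalized reads at 6 °C against 6046 ± 641 at 22 °C. None passed in cold DPP4- cells. The 8 markers of mature fat cells had a sum of 897 to 1446 in DPP4+ cells at 6 °C and 1746 to 2277 at 22 °C. In DPP4- cells the sum was 432 to 850.3 at 6 °C and 323 to 503 at 22 °C. Of 7 tested, 1 fell in cold DPP4+ cells, where 22.6% of all genes fell, and 2 rose in cold DPP4- cells, where 1.98% rose. Of the 8 progenitor markers 2, Pdgfra and Pdgfrb, fell in cold DPP4+ cells and none rose, where 22.6% of all genes fell and 23.5% rose. Pdgfra had 5287 ± 462 at 6 °C against 11512 ± 419 at 22 °C, and Pdgfrb 1505 ± 80.7 against 2942 ± 226 (log2 difference -0.96, adjusted p = 5.08e-10, limma). The 6 markers of DPP4+ interstitial progenitors had a sum of 64467 to 93545 in DPP4+ cells at 6 °C and 46493 to 67758 at 22 °C. In DPP4- cells the sum was 1799 to 2629 at 6 °C and 2364 to 2929 at 22 °C. Of these 6 markers 3 rose and none fell in cold DPP4+ cells, where 23.5% of all genes rose. The 6 markers of DPP4- committed progenitors had a sum of 21190.4 to 24382 in DPP4+ cells at 6 °C and 16211 to 17779 at 22 °C. In DPP4- cells the sum was 210482 to 253605 at 6 °C and 249174 to 295863 at 22 °C. In cold DPP4+ cells 4 of these fell (Col15a1, Pparg, Fabp4 and Sparcl1) and Col4a1 rose, where 22.6% of all genes fell and 23.5% rose. The 9 mesothelial markers had a sum of 65.8 to 90.4 in DPP4+ cells at 6 °C and 52.3 to 82.7 at 22 °C. In DPP4- cells the sum was 55.0 to 95.4 at 6 °C and 23.9 to 50.7 at 22 °C. Msln, Upk1b and Muc16 were under 3 in every group. Of the 9 markers, those averaging under 3 numbered 8 in DPP4+ cells at 6 °C and 7 at 22 °C, against 3 and 6 in DPP4- cells. Of 2 tested, 1 rose in cold DPP4- cells, where 1.98% of all genes rose, and none passed in cold DPP4+ cells. The 8 platelet markers had a sum of 213 to 257 in DPP4+ cells at 6 °C and 189.7 to 239.9 at 22 °C. In DPP4- cells the sum was 373 to 509 at 6 °C and 418 to 508 at 22 °C. Pf4, Ppbp and Gp9 were under 5 in every group. Of 2 platelet markers tested, none passed in the cold in either population. In DPP4+ cells 1 was lower than in DPP4- cells at 6 °C and 2 at 22 °C, where 35.7% and 36.2% of all genes were lower. The part of these marker lists in the members' differences was not tested.

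The genes whose pattern was most like each member were sought by Pearson's r of log2 values over the 20 libraries, which share the strong split by DPP4 and so correlate widely. For F3 these were Prex2 (r = 0.982) and Ripor3 (r = 0.974). Those of Thbd were Odc1 (r = 0.990), Csnk1a1 (r = 0.984) and Ppa1 (r = 0.983). Plaur ran closest to Elf1 (r = 0.982), Ddx3x (r = 0.980) and Rabgef1 (r = 0.979), and Serpine2 to Stmn4 (r = 0.984), Wnt10b (r = 0.981) and Insyn1 (r = 0.981). Serpinf1 was nearest to Fkbp7 (r = 0.981), Cd302 (r = 0.979) and Ctsh (r = 0.978). The values were lower for Plat, with Pvr (r = 0.941), Lbp (r = 0.920) and Cxcl3 (r = 0.916), and for Plau, with Acbd3 (r = 0.927), Ece2 (r = 0.919) and Sqstm1 (r = 0.917). They were lowest for Tfpi, with Lipe (r = 0.883), Zfp13 (r = 0.880) and Cenpu (r = 0.879).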

How the data were processed

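The libraries were RNA-seq of sorted cells; per the labels' protocols RNA was extracted with an RNAqueous micro kit and libraries were made with a NEBNext Ultra II kit. The submitters' processing notes name DESeq2 1.6.3, featureCounts 1.4.6, HISAT2 2.0.1 and Trim Galore 0.4.1, and the builds GRCm38 and mm10, with no role given; annotation and strand are not given in the sources used here, though no other RefSeq gene span overlaps those of the 8 members. The values are normalized counts per gene, a signal deposited by the authors after division by 1 factor per library: 100% of values were whole multiples of 1 step per library (within 0.1 read), which gave back the reads.

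The log2(value + 1) of the 13057 genes averaging 10 or more normalized reads was fitted with limma 3.58.1 in R 4.3.3: 4 group means, 16 residual degrees of freedom, trended and robust moderated variances, two-sided p-values adjusted by Benjamini-Hochberg over all tested genes in each of 5 comparisons, threshold 0.05. Folds are ratios of group means; log2 differences and their SE are fitted on the log2(value + 1) scale, which understates changes of low genes, and 95% intervals use the fitted SE. Whole reads were also tested with edgeR 4.0.16 (quasi-likelihood) and DESeq2 1.42.0, with the authors' factors; edgeR called 6513 genes in cold DPP4+ cells, 615 in cold DPP4- cells, 4347 for their difference, 9731 for DPP4 at 6 °C and 9819 at 22 °C. The limma procedure was run on simulated counts with the same spread for all genes and changes in cold DPP4+ cells only. That simulation did not include uncertain scaling or unequal spread between groups. Exon lengths are from GENCODE vM21, coordinates and promoters from RefSeq on GRCm38.

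The members, the pathway list and the marker lists were chosen with earlier results of these data known. Named were the 8 members; F2r, F2rl1, Procr, Serping1, Anxa2, S100a10 and Lrp1; in each comparison the pathway genes past the threshold with a log2 difference of at least 1 in size and, between 2 groups, no overlap; and the 3 genes most like each member; 2 genes these rules would take, with the results that need them, are not reported here. F7, F10, Plg, Serpinb6a and the ratio pairs were added after their values were seen. Alternatives were other pseudocounts, filters, scalings, tests, a replicate block, and each library left out.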

Additional observations from a re-analysis of the deposited data

Results flagged for a closer look

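In 7 of 132 groups of 5 libraries checked, over 33 named genes, a library stood apart from the others, where chance flags about 1 in 20. Among the members, Serpinf1 was low in DPP4+ cells at 6 °C in replicate 1, at 17557 normalized reads, against 19849.8 to 20489 in the other 4. Thbd was high in DPP4- cells at 22 °C in replicate 1, at 29218 normalized reads, against 22316 to 23982 in the other 4. The same library was low for Vtn, at 1325 normalized reads, against 1917 to 2057 in the other 4. Anxa5 was low in DPP4+ cells at 22 °C in replicate 1, at 2259 normalized reads, against 2569 to 2657 in the other 4. Lrp1 was high in DPP4- cells at 22 °C in replicate 4, at 125251 normalized reads, against 97811 to 105720.0 in the other 4. Serpina10 was high in DPP4- cells at 6 °C in replicate 4, at 90.3 normalized reads, against 0 to 20.5 in the other 4, and in DPP4+ cells at 22 °C its single read gave replicate 1 a value of 0.622, with the other 4 at 0.

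The effect of cold differed between the populations for 19 of the 33 named genes (limma, adjusted p under 0.05, 5 libraries per group), where 33.2% of all genes passed. The count is in part fixed by the naming rule, which took F5, F8, Lrp2, Lrp8, Serpinb1a, Serpina3g and Masp1 for this difference. The log2 difference of the effects, DPP4+ minus DPP4-, was above 0 for Anxa2 (0.61), Eno1 (0.39), F5 (3.78), Lrp1 (0.51), Lrp8 (3.16), Masp1 (2.08), Plau (0.84), Procr (0.93), S100a10 (0.54), Serpine2 (0.82) and Thbd (0.93). It was below 0 for F3 (-2.09), F8 (-1.33), Lrp2 (-2.28), Serpina3g (-3.28), Serpina3n (-0.26), Serpinb1a (-1.39), Serpinb9 (-0.93) and Tfpi (-0.34). The difference of S100a10 was not past the threshold with no filter on low values (adjusted p = 0.0681, limma), TMM factors (0.0653), equal totals (0.0659) or quantile normalization (0.196), nor that of Lrp1 with quantile normalization (0.700).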

How the results depend on the processing

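Of 840 values of the 8 members under an alternative, 799 kept their side of the threshold and, where called, their direction, 25 lost a call, 10 gained one and 6 called values turned; of 1536 for the other named genes the counts were 1497, 28, 3 and 8. Values not past the threshold either way changed sign 10 and 11 times. These turned with totals set equal: at 22 °C F3 to 0.30, Serping1 to 0.35 and Anxa2 to 0.26, and at 6 °C Plau to 0.14 and Serping1 to 0.33. With quantile normalization, F3 turned to 0.035, Serpinf1 to 0.11, Serping1 to 0.60, Anxa2 to 0.24 and Lrp1 to 0.083 at 22 °C, and Plau to 0.033, Serpinf1 to 0.11, Serping1 to 0.51 and Lrp1 to 0.16 at 6 °C. Quantile normalization left 4 of 8 members called at 6 °C in place of 7, and totals set equal called 1142 genes in cold DPP4- cells in place of 681; the cause was not tested. Leaving out 1 library gave 3 to 5 members called in cold DPP4+ cells, 1 to 2 in cold DPP4- cells, 5 to 7 for the difference, 6 to 7 between the populations at 6 °C and 7 to 8 at 22 °C. The populations carry the same replicate numbers, and the labels do not say whether libraries with the same number came from the same mice. Correlations of same-numbered libraries over tested genes ran from -0.23 to 0.27 between temperatures and from 0.017 to 0.16 between the populations. In none of 4 comparisons were all over 0.1. In the other population 4 of 5 libraries at 6 °C and 2 of 5 at 22 °C matched their own number best. Such correlations cannot settle whether libraries were paired, and the main fit used no pairing. With a replicate block 6013 genes were called in cold DPP4+ cells, 709 in cold DPP4- cells, 4317 for the difference, 9694 at 6 °C and 9770 at 22 °C, and Plaur passed for the difference of the cold effects (0.44), while Masp1 did not pass in cold DPP4- cells.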
